A study of Solanum lycopersicum with 36 samples.

Results

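Leaf transcriptomes of the tomato line SGT2ox were compared with those of its own wild type at the 3 h time point. The genes compared were all those with a deposited value of 10 or more in at least 3 of the 6 libraries, which were 20803 of the 29285 genes in the table. Each genotype had 3 libraries at 3 h, and the labels call the triplicates biologically independent. All plants were of the dwarf cultivar Micro-Tom, sampled at the age of about a month from the third and the fourth leaf. The suffix of SGT2ox is read as overexpression of SGT2. The labels do not give the construct, its promoter or the number of independent lines. Some plants were shifted to the cold and others were not, per the protocol, and a library carries a genotype and a time but no temperature. The 12 other libraries of this experiment, SGT2ox and its wild type at 0 h and at 24 h, were used as further samples of the same genotypes. A second wild type set, grown for an independent experiment with the line SGT1ami, was used as another wild type at 3 h.

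Sterol glycosyltransferases, the enzyme family to which SGT2 belongs, attach a sugar to the free sterols of plant membranes. The steryl glucosides they make, with their acylated forms, are constituents of the plasma membrane, and the balance between free and glycosylated sterols is known to bear on membrane order. The study concerned glycosylated sterols, tolerance of cold and jasmonate, a lipid-derived hormone of wound and stress responses. The comparison at 3 h asks which transcripts differ between the line and its wild type early in that time course.

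No identifier of the table was found among the 41476 entries of the RefSeq gene table, so genes are given by identifier and no name, family or role is attached to any of them. For the same reason the overexpressed transgene and leaf marker genes were not looked up, and the labels were not checked against them.

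The 6 libraries held between 37489207 and 39094748 recovered reads, and between 23650 and 23819 genes had a read. The genotypes separated on the first principal component of the 6 libraries, which took 58.0% of the variance, with scores of 33.3 to 35.7 in SGT2ox and −35.3 to −32.5 in the wild type. The second component took 11.3% and held libraries of both genotypes on either side. Over 16034 genes with a mean of at least 100, the median absolute log2 difference between a library of SGT2ox and one of the wild type was 0.123 to 0.145. Between libraries of the same genotype it was 0.079 to 0.090 in SGT2ox and 0.080 to 0.093 in the wild type. The common biological coefficient of variation that edgeR estimated from the recovered reads was 4.76% in SGT2ox and 4.98% in the wild type. Of the genes compared, 19512 had a value of 10 or more in all 6 libraries. Only the 3 libraries of SGT2ox reached it for 79 genes, and only the 3 wild type libraries for 74. Genes of either kind had to differ for the filter to pass them, and 119 of them are among the genes called below. Several counts are therefore also given without them.

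At 3 h, 3843 genes differed between SGT2ox and the wild type, which is 18.5% of those tested (limma with Benjamini-Hochberg adjustment at 0.05). Of these, 1610 were higher in SGT2ox, 7.74% of the genes tested, and 2233 were lower, 10.7%. Without the genes that passed the filter through 1 genotype only, 1546 were higher and 2178 lower. Most differences were small. The median log2 fold change was 0.37 among the higher genes and −0.31 among the lower ones, and the median standard error over all genes was 0.091. A difference of at least 1.5-fold was seen in 990 of the called genes. At least 2-fold differences were found in 456 genes, 223 of them higher, 1.07% of those tested, and 233 lower, 1.12%. Of these, 62 of the higher and 55 of the lower genes had passed the filter through 1 genotype only, which left 161 and 178. At least 4-fold differences were found in 75 higher and 67 lower genes, and at least 10-fold differences in 38 and 27.

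The balance of small rises and falls depended on how the libraries were scaled. Under the deposited size factors 41.9% of the called genes were higher in SGT2ox, with a median log2 fold change of −0.02 over all genes. Scaled by library totals the median was 0.04, and 2549 genes were called higher against 1467 lower, so that 63.5% were higher. TMM scaling gave 1771 higher and 2032 lower genes. Among genes of at least 2-fold the split moved little, with 251 higher and 216 lower under library totals and 227 of each under TMM scaling. In whole leaves, a lower transcript level may stand for fewer cells of a type or for less RNA per cell, and these cannot be told apart.

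The abundant genes with the largest differences at 3 h were few. Among the 6784 genes whose mean reached 1000 normalised reads, 610 were called higher and 1136 lower in SGT2ox, and 12 and 15 of these reached 2-fold. Between 1000 and 3000 normalised reads 8.81% were called higher and 13.3% lower, and at 3000 or more 9.31% and 22.9%. Over all genes the shares were 7.74% and 10.7%. The excess of lower calls depended on the scaling. Library totals gave 711 higher and 349 lower genes between 1000 and 3000, and 432 and 314 at 3000 or more. TMM scaling gave 447 and 516, and 262 and 490. Deposited values are gene counts divided by a size factor for each library and are called normalised reads here. They are not divided by gene length, so they compare samples and not genes.

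Solyc09g061860 had the largest rise among the abundant genes. Its normalised read counts were 54589.5, 54285 and 53591 in the 3 SGT2ox libraries, against 1630.5, 1599.8 and 1643 in the 3 wild type libraries. All SGT2ox libraries thus lay far above all wild type libraries, and the libraries of a genotype lay close together. The means were 54155 ± 512 in SGT2ox and 1624 ± 22.1 in the wild type (SD, n = 3 each), a 33.3-fold difference with a log2 fold change of 5.06 and a standard error of 0.038 (limma adjusted p = 3.79e-37). Only 19 called genes had a larger log2 fold change, and none of them had a mean of 1000. The gene was called higher in SGT2ox at 0 h and 24 h as well, with a log2 fold change of 4.74 at 0 h. The effect at 3 h exceeded that at 0 h by 0.31 on the log2 scale (limma adjusted p = 5.97e-05). Between 24 h and 3 h the difference was −0.05 (limma adjusted p = 0.503). The other wild type set had 5201 ± 137 at 3 h (SD, n = 3), which is above the wild type of this experiment and still far below SGT2ox.

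Solyc08g074620.3 was also higher in SGT2ox. It had 2317, 2378 and 2530.3 normalised reads in the SGT2ox libraries, against 529, 437 and 512 in the wild type libraries, with no overlap between the groups. The means were 2408 ± 110 in SGT2ox and 493 ± 49.0 in the wild type (SD, n = 3 each), a log2 fold change of 2.29 with a standard error of 0.070 (limma adjusted p = 1.02e-20). Both genotypes had less of this transcript at 3 h than at 0 h, where the means were 6283 in SGT2ox and 1095 in the wild type. The ratio of the genotypes did not pass the test for a difference between times, with log2 fold changes of 2.52 at 0 h and 2.53 at 24 h (limma adjusted p = 0.109 for 3 h minus 0 h and 0.0666 for 24 h minus 3 h).

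Solyc04g064770.1 had the largest fall among the abundant genes. It had 548, 558 and 483 normalised reads in the SGT2ox libraries, against 2553, 2539.6 and 2397 in the wild type libraries. Every SGT2ox library was below every wild type library. The means were 529 ± 40.9 in SGT2ox and 2496 ± 86.5 in the wild type (SD, n = 3 each), a 4.72-fold lower level with a log2 fold change of −2.24 and a standard error of 0.079 (limma adjusted p = 3.43e-19). The gene was lower in the line at the other times too, by a log2 fold change of −1.71 at 0 h and −1.55 at 24 h. The deficit at 3 h was larger than at 0 h by −0.53 (limma adjusted p = 0.000853). From 3 h to 24 h the effect changed by 0.69 (limma adjusted p = 2.16e-05). Its mean in the other wild type set at 3 h was 3137, above both genotypes of this experiment.

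Solyc01g108130 differed with time. At 3 h it had 419, 397 and 488 normalised reads in the SGT2ox libraries, against 1614, 1610.3 and 1534 in the wild type libraries. The groups did not overlap, and the means were 435 ± 47.5 in SGT2ox and 1586 ± 45.0 in the wild type (SD, n = 3 each). The log2 fold change was −1.87 with a standard error of 0.069 (limma adjusted p = 1.01e-18). At 0 h it was −1.05 and at 24 h 0.08, where the genotypes were not called different (limma adjusted p = 0.431). Both changes of the effect passed the test, with a difference of −0.82 between 3 h and 0 h (limma adjusted p = 2.44e-07) and of 1.94 between 24 h and 3 h (limma adjusted p = 2.38e-15). At 3 h the level in SGT2ox was near its own 0 h level of 391, while the wild type mean of 1586 at 3 h stood against 808 at 0 h. The other wild type set had means of 412 at 0 h, near that of SGT2ox, and 1496 at 3 h, near that of the wild type.

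**Figure D1:**
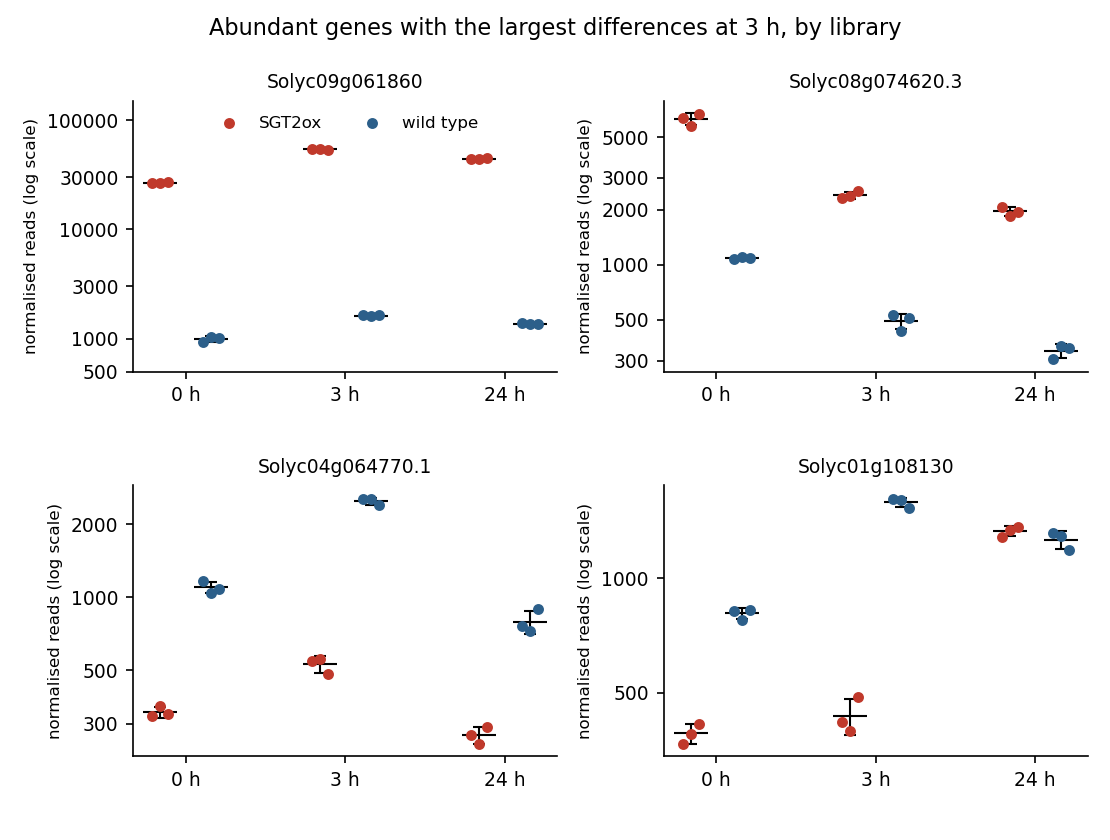
Normalised reads on a log scale in each library of SGT2ox (red) and its wild type (blue) at 0, 3 and 24 h for the 4 abundant genes with the largest differences at 3 h. Points are libraries, bars are the mean ± SD of 3 libraries, and the genotypes do not overlap at any time except for Solyc01g108130 at 24 h.

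**Figure D2:**
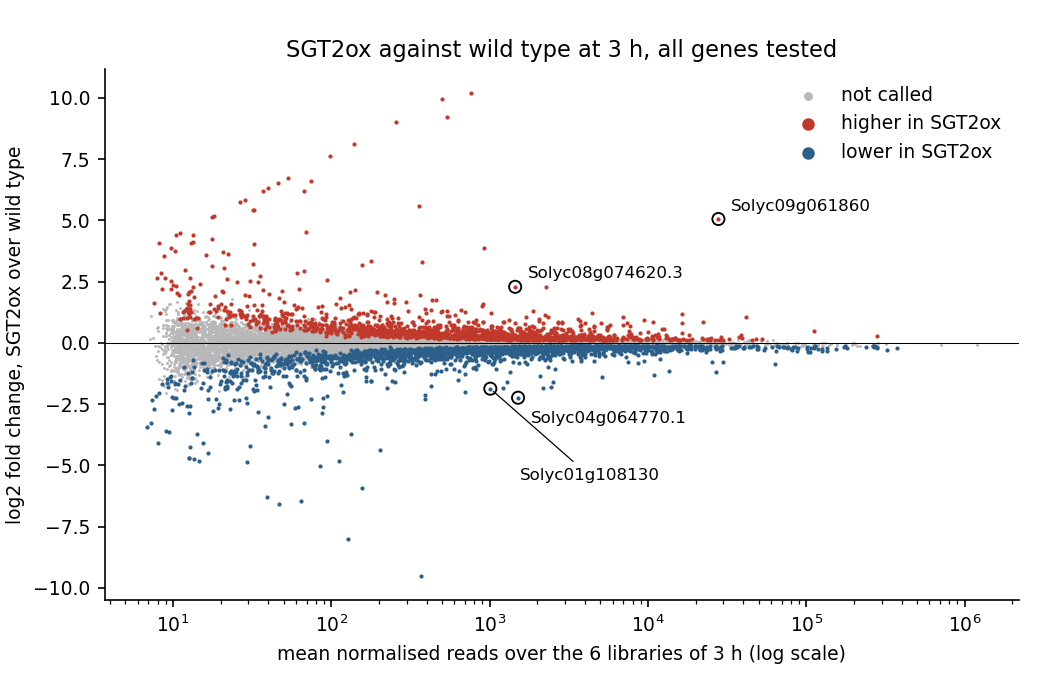
Log2 fold change of SGT2ox over the wild type at 3 h against the mean normalised reads of the 6 libraries (log scale) for all 20803 genes, with called genes in red (higher) and blue (lower) and the 4 named genes circled. Large fold changes lie mostly among genes with few reads, while Solyc09g061860 stands apart among abundant genes at 5.06.

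The share of called genes grew with the level of the gene, and their fold changes shrank. Of 2096 genes with a mean below 30 normalised reads, 222 were called, 10.6%, with a median absolute log2 fold change of 1.56. Of 2438 genes with a mean of 3000 or more, 785 were called, 32.2%, with a median of 0.19. The median standard error was 0.42 in the lowest class and 0.045 in the highest, so that a small change could pass the test only in abundant genes. A called difference of at least 2-fold was found in 9.16% of the genes below 30 normalised reads, in 1.76% of those between 100 and 300, and in 0.369% of those at 3000 or more. Of the 192 such genes below 30 normalised reads, 94 had passed the filter through 1 genotype only, and without genes of that kind the share in this class was 4.98% of 1966 genes.

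The direction of the calls shifted with level under the deposited scaling. Between 100 and 300 normalised reads, 281 genes were higher in SGT2ox and 275 lower. At 3000 or more, 227 were higher and 558 lower, whereas library totals turned this round, with 432 higher and 314 lower, and TMM scaling kept it, with 262 higher and 490 lower. The 100 most abundant genes leaned the same way under both the deposited scaling and library totals. Under the deposited scaling 46 of them were called, 2 higher and 44 lower in SGT2ox. Among all genes of 3000 or more, 32.2% were called, 9.31% higher and 22.9% lower. The median log2 fold change of the 100 genes was −0.12, with a range of −0.84 to 0.48, beside a median of −0.02 over all genes. Under library totals 4 were higher and 30 lower, with a median of −0.07 beside 0.04 over all genes. In each library, the 100 genes with the most reads there took 32.0% ± 0.497 of the reads in SGT2ox and 33.3% ± 0.356 in the wild type (SD, n = 3 each).

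**Figure D3:**
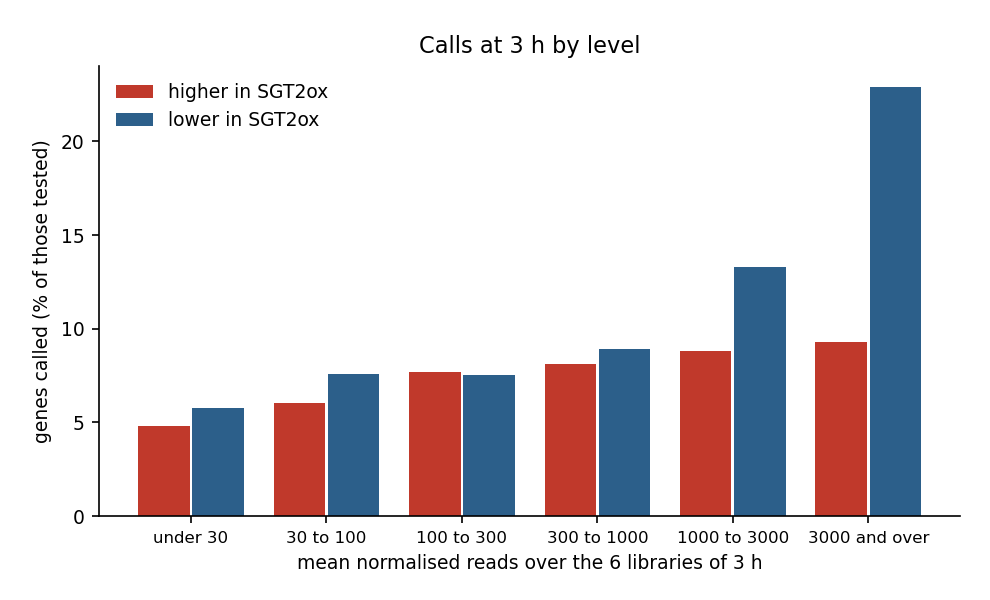
Percent of the genes tested that were called higher (red) or lower (blue) in SGT2ox at 3 h, by the mean normalised reads of the 6 libraries, under the deposited scaling. Lower calls reach 22.9% and higher calls 9.31% in genes of 3000 or more, whereas library totals give more higher than lower calls in that class.

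A group of identifiers on the unplaced chromosome 0, those beginning with Solyc00g500, was low in SGT2ox at 3 h, and it was taken up with earlier results of these data known. Of its 72 tested genes 66 had a log2 fold change below 0, and the median was −0.56 beside −0.02 over all genes. Of the 72, 12 passed the test, all of them lower, which is 16.7% beside 10.7% called lower among all genes. The identifiers of this group took 0.124% ± 0.00542 of the reads in SGT2ox and 0.207% ± 0.00484 in the wild type at 3 h (SD, n = 3 each). At 0 h the order was the other way, with 0.00835% ± 0.000566 in SGT2ox and 0.00693% ± 0.000820 in the wild type, and at 24 h the shares were 0.554% ± 0.0132 in SGT2ox and 0.822% ± 0.0182 in the wild type. As shares of the reads these values do not rest on the size factors, and the genotypes did not overlap at any of the 3 times. In the other wild type set the share was 0.175% to 0.180% at 3 h, between the genotypes of this experiment. It was below both of them at the other times, with 0.00223% to 0.00243% at 0 h and 0.171% to 0.175% in the libraries labelled 24 h.

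Some genes were read in only 1 genotype at 3 h. By the rule of no read in any library of one genotype and a value of 10 or more in each library of the other, 15 genes were read in SGT2ox alone and 9 in the wild type alone. These counts depended on the rule, with 26 and 17 genes where at most 3 reads counted as absent, and 9 and 4 where a value of 50 or more was asked for. Their means ranged from 16.3 to 995 normalised reads in SGT2ox, with a median of 74.2, and from 16.0 to 735.5 in the wild type, with a median of 29.1. Since mates of a fragment were mostly counted each, 3 fragments or 6 reads over the group were taken as the limit that a count of 0 allows. This is a mean of 2.33 in SGT2ox and 2.41 in the wild type, and it covers counting error only. Against that limit the 15 genes were at least 6.79-fold to at least 414-fold higher in SGT2ox. The 9 genes were at least 6.87-fold to at least 315-fold lower in SGT2ox.

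The most abundant of the 15 was Solyc05g015780.1, with 1005, 1001 and 979 normalised reads in the SGT2ox libraries and 0 reads in all 3 wild type libraries. It had no read in the other wild type set or in SGT1ami at 3 h. The next, Solyc04g039670, had 541, 489 and 519 in the SGT2ox libraries and 0 reads in the wild type libraries. It was not confined to the line at all times, since the wild type of this experiment had a mean of 91.8 ± 14.2 at 24 h (SD, n = 3), and SGT1ami had a mean of 139 at 3 h.

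Solyc10g009595.1 led the 9 genes read in the wild type alone, with 0 reads in all 3 SGT2ox libraries and 679, 749.8 and 777.5 normalised reads in the wild type libraries. Its mean was 665 in the other wild type set and 72.6 in SGT1ami at 3 h. Solyc02g021785.1 had 0 reads in the SGT2ox libraries and 267, 265 and 238 normalised reads in the wild type libraries. The other wild type set had a mean of 278, and SGT1ami had no read, so that both lines lacked reads of this gene at 3 h and both wild type sets had them.

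The libraries of 0 h and 24 h took no part in choosing these genes. All 15 genes of SGT2ox alone were also called higher at 0 h, and 13 of them at 24 h, beside 14.9% and 16% of all genes. The wild type had at most 3 reads of 11 of them at 0 h and of 10 at 24 h. Of the 9 genes of the wild type alone, 7 were also called lower in SGT2ox at 0 h and 4 at 24 h, beside 12.4% and 18.2% of all genes. SGT2ox had at most 3 reads of each of the 9 at both times. The other wild type set at 3 h had no read of 9 of the 15 genes and a mean of at most 6.44 for the rest. It had reads of all 9 genes of the wild type alone, with means of 1.93 to 665. Of the 15 identifiers, 11 carried a dot suffix, and 4 lay on chromosome 4 and 4 on chromosome 5. Among all 20803 genes tested, 3931 carried a suffix, 1754 lay on chromosome 4 and 1380 on chromosome 5.

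**Figure D4:**
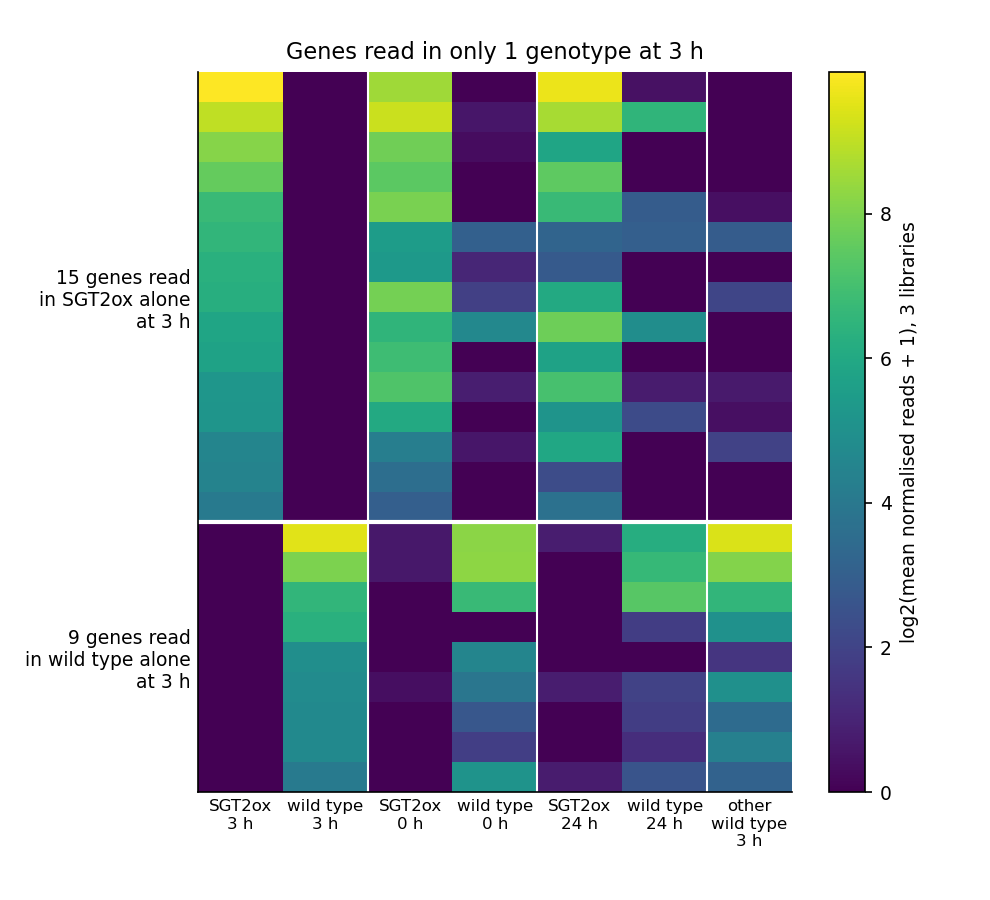
Mean normalised reads as log2(mean + 1) of 3 libraries, by colour, for the 15 genes read in SGT2ox alone (upper block) and the 9 read in the wild type alone (lower block) at 3 h, each block sorted by level. Columns are SGT2ox and wild type at 3, 0 and 24 h and the other wild type set at 3 h, where the 15 genes have means of at most 6.44 and the 9 genes means of up to 665.

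Many of the large differences at 3 h were there at the other times. At 0 h, 5686 genes were called, 27.3% of those tested, and at 24 h 7119, 34.2%. Of the 223 genes at least 2-fold higher in SGT2ox at 3 h, 122 were also called higher at 0 h and 103 at 24 h, beside 14.9% and 16% of all genes called higher at these times. They make up 54.7% and 46.2% of the 223, and 13 and 17 of the 223 were called in the opposite direction. Of the 233 genes at least 2-fold lower, 121 were also called lower at 0 h and 76 at 24 h, or 51.9% and 32.6%, beside 12.4% and 18.2% of all genes. In the opposite direction 6 and 20 of the 233 were called. The same call at all 3 times was made for 88 of the higher and 67 of the lower genes. Without genes that passed the filter through 1 genotype only, 83 of 161 higher and 99 of 178 lower genes had the same call at 0 h, and 65 and 60 had it at 24 h.

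These genes were chosen for their size at 3 h, so smaller medians at the other times follow from the choice. The median log2 fold change of the 223 genes was 0.86 at 0 h, 1.47 at 3 h and 0.53 at 24 h. That of the 233 genes was −0.78 at 0 h, −1.54 at 3 h and −0.18 at 24 h. Over all genes the median absolute log2 fold change was 0.153 at 0 h, 0.127 at 3 h and 0.176 at 24 h. For the genes of at least 4-fold, 56 of 75 higher genes were called higher at 0 h and 51 at 24 h. Of the 67 lower genes, 43 were called lower at 0 h and 30 at 24 h. Both of these sets include genes that passed the filter through 1 genotype only. Among all called genes, which were mostly small changes, the shares were lower. Of the 1610 higher genes, 38.2% were also higher at 0 h and 29.7% at 24 h, while 11.2% and 18.9% were called lower there. Of the 2233 lower genes, 29.2% were also lower at 0 h and 30.9% at 24 h, while 18.9% and 20.5% were called higher. Over all genes tested, 14.9% had a higher call at 0 h and 12.4% a lower one. For 24 h these shares were 16% and 18.2%. Opposite calls were thus near the all-gene share for the 1610 genes and above it for the 2233 genes. Calls in the same direction exceeded it for both sets at either time. The shared genes made up 19.8% of the 3108 genes higher at 0 h and 25.3% of the 2578 genes lower at 0 h. At 24 h they made up 14.4% of the 3324 higher and 18.2% of the 3795 lower genes.

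Library totals turned the split at 0 h round, to 2006 genes higher and 4668 lower in SGT2ox, or 9.64% and 22.4% of those tested, and gave 14.4% higher and 20.5% lower at 24 h. Of the 251 genes at least 2-fold higher at 3 h under this scaling, 128 were also called higher at 0 h and 110 at 24 h, or 51.0% and 43.8%. Of the 216 genes at least 2-fold lower, 57.4% were also called lower at 0 h and 32.9% at 24 h.

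**Figure D5:**
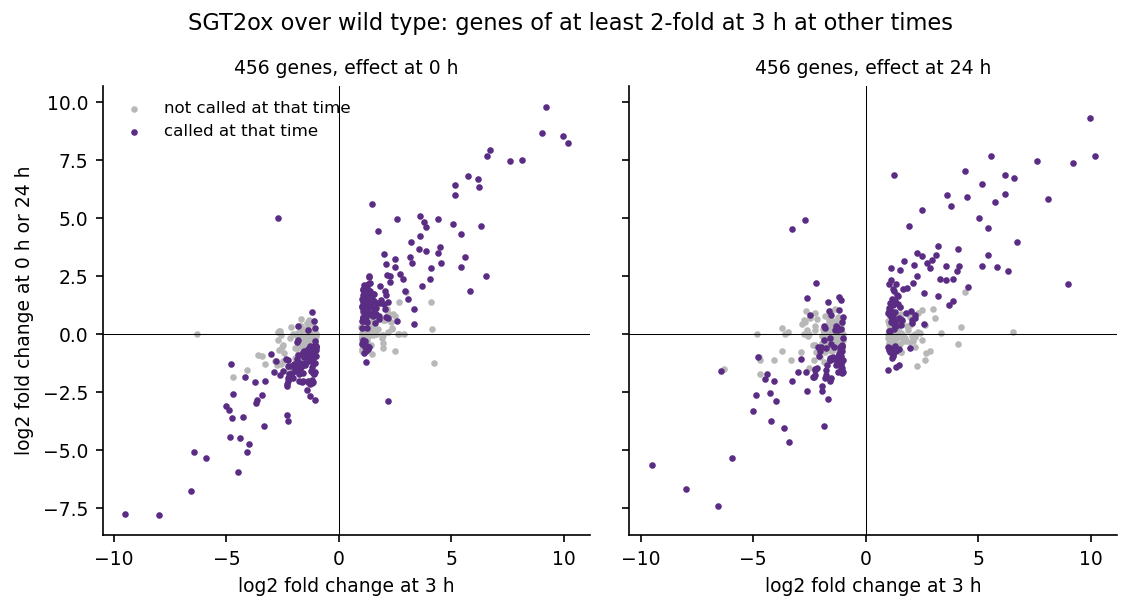
Log2 fold change of SGT2ox over the wild type at 0 h (left) or 24 h (right) against that at 3 h, for the 456 genes called with at least 2-fold at 3 h, purple where the gene was also called at the other time. At 0 h 122 of the 223 higher and 121 of the 233 lower genes kept their call, and at 24 h 103 and 76 did.

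The size of the line effect itself was tested between times. From 0 h to 3 h it changed in 4080 genes, 19.6% of those tested, with 1564 raised, 7.52%, and 2516 lowered, 12.1%, in SGT2ox relative to the wild type. From 3 h to 24 h it changed in 5659 genes, 27.2%, with 2903 raised, 14%, and 2756 lowered, 13.2%. Both splits reversed under library totals, which gave 3950 raised and 1311 lowered genes from 0 h to 3 h, and 2124 raised and 4017 lowered from 3 h to 24 h. Of the genes at least 2-fold different at 3 h, 68 higher and 86 lower ones were called at neither other time. Both tests of the difference were passed by 23 and 23 of these. The tests of the difference share the 3 h libraries by which those genes were chosen.

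Among genes with a mean of at least 1000 over the 4 groups compared, Solyc07g043460 had the largest raised effect from 0 h to 3 h and changed direction between times. At 3 h it had 6511, 5809 and 6238 normalised reads in the SGT2ox libraries, against 2778, 2613 and 2534 in the wild type libraries. At 0 h it was lower in the line instead, with a mean of 1469 ± 71.9 in SGT2ox and 2431 ± 68.0 in the wild type (SD, n = 3 each). The line thus had the higher level only at 3 h of the 3 times, with log2 fold changes of −0.73 at 0 h, 1.23 at 3 h and −0.93 at 24 h. The difference between 3 h and 0 h was 1.95 with a standard error of 0.087 (limma adjusted p = 3.22e-16). Solyc06g074090 had effects of the same signs, with means at 3 h of 2658 ± 40.1 in SGT2ox and 1079 ± 35.1 in the wild type (SD, n = 3 each). Its log2 fold changes were −0.64 at 0 h, 1.30 at 3 h and −0.50 at 24 h, and the difference between 3 h and 0 h was 1.94 (limma adjusted p = 1.59e-15). In the other wild type set at 3 h the means were 4967 for Solyc07g043460 and 2265 for Solyc06g074090. Both lay nearer to SGT2ox than to the wild type of this experiment.

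Among abundant genes, the strongest lowered effects from 0 h to 3 h came from those with an excess in the line at 0 h. Solyc11g044910 had 306, 292 and 332 normalised reads in the SGT2ox libraries at 3 h, against 488, 521 and 602 in the wild type libraries. At 0 h the means were 2752 ± 39.8 in SGT2ox and 727 ± 7.51 in the wild type (SD, n = 3 each). The transcript was thus lower in the line at 3 h and higher at 0 h, and the difference was −2.71 with a standard error of 0.120 (limma adjusted p = 3.22e-16). Solyc09g092110 had a mean of 180.5 ± 3.28 in SGT2ox and 203 ± 48.0 in the wild type at 3 h (SD, n = 3 each), which did not pass the test (limma adjusted p = 0.443). At 0 h its means were 7880.0 in SGT2ox and 2775 in the wild type, and the difference between 3 h and 0 h was −1.64 (limma adjusted p = 4.45e-09). Both genotypes had far fewer reads of this gene at 3 h than at 0 h.

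From 3 h to 24 h, Solyc02g069490 passed from higher to lower in the line. It had 21431, 23313 and 23322 normalised reads in the SGT2ox libraries at 3 h, against 9789, 10617 and 10030 in the wild type libraries. At 24 h the means were 3423 ± 219 in SGT2ox and 6928 ± 313 in the wild type (SD, n = 3 each). The difference in log2 fold change was −2.18 with a standard error of 0.072 (limma adjusted p = 2.90e-19). Solyc05g053400 behaved alike, with means at 3 h of 2696 in SGT2ox and 1429 in the wild type, means at 24 h of 67.4 in SGT2ox and 163 in the wild type, and a difference of −2.20 (limma adjusted p = 3.53e-11).

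The opposite order was seen for Solyc03g083480, which had 93.6, 82.0 and 122 normalised reads in the SGT2ox libraries at 3 h, against 320.3, 343 and 397 in the wild type libraries. At 24 h the means were 2611 ± 78.3 in SGT2ox and 2055 ± 75.1 in the wild type (SD, n = 3 each), and the difference was 2.18 (limma adjusted p = 3.72e-13). The largest rise of the line effect to 24 h among abundant genes, 3.27 with a standard error of 0.47 (limma adjusted p = 3.71e-06), was that of Solyc04g008100. It had 6.93, 2.34 and 21.1 normalised reads in the SGT2ox libraries at 3 h, against 49.6, 58.3 and 67.9 in the wild type libraries. At 24 h its means were 2436 in SGT2ox and 1787 in the wild type. This value rested on few reads in SGT2ox, and it was 2.60 without SGT2ox replicate 2 of 3 h, 3.97 without SGT2ox replicate 3 of 3 h, and 2.31 with a pseudocount of 10.

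The other wild type set at 3 h shared no library with either genotype of this comparison. Of the 223 genes at least 2-fold higher in SGT2ox, its mean log2 value lay nearer to the wild type of this experiment than to SGT2ox for 140, or 62.8%. Of the 233 lower genes it did so for 183, or 78.5%. Without genes that passed the filter through 1 genotype only, the counts were 92 of 161 and 135 of 178. Among all genes of at least 4-fold, with genes of that kind included, they were 63 of 75 and 54 of 67. SGT2ox lay on the same side of the other wild type set as of its own for 184 of the 223 and 208 of the 233 genes. The remaining genes are those for which the other wild type set lay beyond SGT2ox. For them the 2 wild type sets differed by more than the line did from its own. The counts by side include genes that passed the filter through 1 genotype only. No share over all genes tested was taken for nearness or side.

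Genes were also grouped by how they changed from 0 h to 3 h in that other wild type set. Of 2217 genes that rose at least 2-fold there, 671 differed between SGT2ox and its wild type at 3 h, or 30.3%, beside 18.5% of all genes. Of these, 214 were higher and 457 lower in SGT2ox, 9.65% and 20.6% of the group, and the median log2 fold change of the group was −0.08 beside −0.02 over all genes. Under library totals 285 were higher and 350 lower, with a median of −0.02 beside 0.04 over all genes. At 0 h and at 24 h the median line effect of the same genes was 0.02 and 0.00. Of 1130 genes that fell at least 2-fold in the other wild type set, 223 were called, 19.7%, with 113 higher and 110 lower in SGT2ox. The remaining 17456 genes had 2949 called, or 16.9%.

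Differences were found on all chromosomes, as the identifiers number them. The share of called genes ran from 16.1% on chromosome 11 to 20.2% on chromosome 8, with chromosome 0 at 16%. The share called with at least 2-fold ran from 1.73% on chromosome 11 to 2.83% on chromosome 8, beside 2.19% of all genes, and was 4% of the 75 genes on chromosome 0. In the order of the identifiers, windows of 20 consecutive tested genes held at most 5 such genes, and 68.1% of the 20322 windows held none. Neighbours in this order were both of that kind in 36 pairs, with 446 such genes among the 20550 ordered. No random order was drawn for comparison, so whether such genes lie closer together than by chance was not tested.

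Identifiers with a dot suffix differed by at least 2-fold more often than those without. This was so for 186 of 3931 genes with a suffix, 4.73%, and for 270 of 16872 without one, 1.60%. Together these counts include 117 genes that only SGT2ox or only the wild type brought through the filter, and such genes had to differ. Of the 117, 94 had a mean below 30 normalised reads. How they split by suffix was not counted, so no share in this paragraph is given without them. Genes with a suffix had a lower median level, 130 normalised reads against 586. Within classes of level the shares came closer among low genes, with 6.17% of the genes with a suffix and 4.27% of those without between 30 and 100 normalised reads. Between 1000 and 3000 they were 1.68% of 417 genes with a suffix and 0.280% of 3929 without, and at 3000 or more 0% of 238 and 0.409% of 2200. The labels do not say what the suffix marks in this annotation.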

How the data were processed

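Poly(A) RNA of leaves was sequenced with DNBSEQ technology, per the labels. Trimmomatic, STAR, featureCounts and DESeq2 are named in the submitters' processing notes, without versions. Not given in the sources used here are genome build, annotation and use of strand in counting, so overlapping genes and near-identical copies cannot be separated. The values the authors deposited are a normalised signal: the read count of a gene over a size factor of its library. This was read from the values, of which 100% were whole multiples of the value of 1 read, within 0.01. Of recovered read numbers from 2 to 11 in the 6 libraries, 78.3% were even, so mates of a fragment were mostly counted each, and independent fragments are fewer than reads.

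Sample titles gave the groups. The 18 libraries of the SGT2ox experiment were fitted together in 6 groups on the log2(value + 1) scale with limma 3.58.1 and its trend option in R 4.3.3, leaving 12 residual degrees of freedom. A fold change on this scale understates the change of low genes. Benjamini-Hochberg adjustment of p-values ran over all 20803 genes, with calls at 0.05. Levels are means ± SD of 3 libraries. Libraries of a group differed by more than sampling noise, with a mean chi-square per gene of 2.99 to 4.86, and all were kept. Scripts were tested on simulated data. Alternatives were TMM and library-total scaling, edgeR 4.0.16 and DESeq2 1.42.0 on the recovered reads, a pseudocount of 10, other filters, only the groups compared, a replicate block, and leaving out each replicate.

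The genes and lists were chosen with earlier results of these data known. The rule named, per comparison, the 2 highest and 2 lowest log2 fold changes among called genes with a mean of at least 1000 and no overlap between groups (for differences between times, no overlap between the line effects of both times, each library of SGT2ox set against each of the wild type), and for genes of 1 genotype alone the 2 with the highest mean. Those of 0 h and 24 h are not printed. Because 0 identifiers matched, the gene lists had no member and were not used.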

Additional observations from a re-analysis of the deposited data

Results flagged for a closer look

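The line effect, SGT2ox over wild type, differed between 3 h and 0 h in 4080 genes and between 24 h and 3 h in 5659 genes, each by the test of the difference itself (limma with Benjamini-Hochberg adjustment at 0.05). For the abundant genes with the largest differences between 3 h and 0 h, the change of the log2 fold change was −2.71 for Solyc11g044910 and −1.64 for Solyc09g092110. It was 1.95 for Solyc07g043460 and 1.94 for Solyc06g074090. Between 24 h and 3 h it was −2.20 for Solyc05g053400 and −2.18 for Solyc02g069490. It was 3.27 for Solyc04g008100 and 2.18 for Solyc03g083480, and the value of Solyc04g008100 rests on between 2.34 and 21.1 normalised reads in the SGT2ox libraries at 3 h. With 3 libraries in each group, no library was tested for standing apart from its group.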

How the results depend on the processing

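The 3843 calls at 3 h became 3803 under TMM scaling, 4016 under library totals, 3963 with edgeR, 4122 with DESeq2, 4096 with a pseudocount of 10, 3360 for genes with a mean of at least 100, 3652 with no filter and 3881 with only the 6 libraries of 3 h. A fit of these 6 libraries with the genes of all 18, chosen after seeing the data, gave 2559 calls among 22399 genes. Its prior degrees of freedom were 2.32, against 22.63 for the same libraries with the 20803 genes. What lowered them was not tested. Without the genes that passed the filter through 1 genotype only, added likewise, 3724 calls were left. Leaving out each replicate gave 2933 to 3296 calls at 3 h, 4640 to 4855 at 0 h, 6285 to 6479 at 24 h, 3507 to 3885 for the difference between 3 h and 0 h and 5146 to 5312 for that between 24 h and 3 h. It gave 15 to 21 genes read in SGT2ox alone and 9 to 12 in the wild type alone. With at most 3 reads as absent these were 26 and 17, and with 50 or more as present 9 and 4. Library totals gave 2006 higher and 4668 lower genes at 0 h, against 3108 and 2578. All 20 values for single named genes kept their direction and call under every alternative run. Pairing by replicate number was looked for in what was left of each gene's log2 value after its group mean was subtracted. Over 16522 genes, these remainders correlated at −0.059 to 0.086 in 45 pairs of same-numbered libraries from different groups. The numbers thus showed no pairing. A replicate block gave 3805 calls at 3 h, 5634 at 0 h, 7094 at 24 h, and 4087 and 5600 for the differences. Depth limits genes of few reads: below a mean of 30 the median standard error was 0.42, so smaller changes were not detectable there.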
